A study of Mus musculus with 3 samples.

Results

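The ionotropic glutamate receptor genes Gria1, Gria2, Gria4, Grin1, Grin2a, Grin2b, Grin2c, Grin2d, Grik1 and Grik2 were examined for occupancy by the thyroid hormone receptor TRα1 in neurons of the adult mouse striatum. A TRα1 binding site was assigned to a gene when its summit lay within the annotated gene body or less than 30 kb from the 5′ end of the gene, which is called here the transcription start site (TSS). By this rule 53 of the 23988 binding sites in the striatum belonged to these genes, all 10 genes held at least 1 site, and no site was shared between members of the group. Of all 21938 protein-coding genes, 57.7% held a site by the same rule. Since 7 of the 10 genes are at least 100 kb long, the closer reference is the 2492 protein-coding genes of that length, of which 81.2% held a site.

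Chromatin came from the striatum of euthyroid adult male C57BL/6J mice, given no treatment, in which GS-tagged TRα1 was expressed in GABAergic neurons. There were 2 ChIP libraries and 1 input library, all from mice of the same genotype, labelled with an age of 8 without a unit. The tagged receptor came from a floxed construct, but the labels do not name the Cre driver, and the number of animals behind each library is not given in the sources used here. The processed data were 1 peak list with no values for single libraries, so replicates were not compared, the depth of the libraries was not analysed here, and the values below carry no error between animals.

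AMPA, NMDA and kainate receptors are cation channels that open on binding glutamate and carry most fast excitatory transmission, including that which striatal projection neurons receive from the cortex and thalamus. Each receptor is assembled from subunits encoded by separate genes. TRα1 binds DNA as a dimer with RXR, preferentially at DR4 elements, which are direct repeats of the hexamer AGGTCA with 4 bp between them. It occupies such elements with or without hormone, and the hormone exchanges corepressors for coactivators.

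DR4 elements were searched on both strands, with at most 2 mismatches in the 12 bases of both hexamers and within 100 bp of the summit. They were found at 3 of the 53 sites, 1 each of Gria1, Grin2b and Grin2c. The sequences below, from the GRCm38 reference, are shown because they are the receptor sites with a match within this allowance, with its hexamers in capitals. The first lies at chr11:57122153-57122233 on the minus strand and the second at chr6:135828535-135828628 on the plus strand, and both are intronic. Of the Grin2c site only the element is given, at chr11:115276554-115276569 on the minus strand.
Gria1, intron 2: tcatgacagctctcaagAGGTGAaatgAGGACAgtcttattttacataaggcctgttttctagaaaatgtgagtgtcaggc
Grin2b, intron 5: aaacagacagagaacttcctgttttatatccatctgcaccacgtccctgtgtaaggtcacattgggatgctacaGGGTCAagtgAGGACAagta
Grin2c, upstream: AGGTGAacggAGGTGA

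Each of these elements departed from the repeat at 1 base in each hexamer. With positions counted from 1 at the 5′ end of the element and the base of the repeat named first, the substitutions were C5G and T14A in Gria1, A1G and T14A in Grin2b, and C5G and C15G in Grin2c. Their centres lay 16, 42 and 39 bp from the summit, respectively.

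The strongest intronic sites of the 3 receptor classes are shown next, because none of them held a DR4 element within 100 bp of the summit. Each window runs 40 bp to either side of the summit, on the plus strand, at chr11:57170179-57170259 for Gria1, chr6:136169665-136169745 for Grin2b and chr10:49434874-49434954 for Grik2. The capitals in the Gria1 window mark the only match to the PAR bZIP motif TTACGTAA within 100 bp of the summit of any of the 53 sites. This motif was searched after the sequence had been seen and occurred at 35 of the 23988 sites, or 0.146%.
Gria1, intron 2: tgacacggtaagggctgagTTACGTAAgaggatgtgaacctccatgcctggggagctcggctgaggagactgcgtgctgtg
Grin2b, intron 2: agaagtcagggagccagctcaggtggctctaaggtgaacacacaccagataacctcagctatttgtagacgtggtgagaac
Grik2, intron 7: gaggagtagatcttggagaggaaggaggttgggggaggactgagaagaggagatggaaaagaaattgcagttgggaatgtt

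The sites were unevenly divided among the genes. Gria1, Grin2a and Grin2b held 37 of the 53 sites, or 69.8%, in 40.5% of the searched sequence, and the other 7 genes held 16. Over the 3201 kb searched, the density was 1.66 sites per 100 kb (95% Poisson interval 1.24 to 2.17, which covers counting error only). The pooled density of all protein-coding genes of at least 100 kb was 1.17 per 100 kb, just below this interval. The interval covers all 10 receptor genes, however, and the 7 of at least 100 kb had 1.60 per 100 kb. Without Gria1, Grin2a or Grin2b in turn, the density was 1.44, 1.53 and 1.44, and the intervals, with lower limits of 1.031, 1.103 and 1.023, then included 1.17. By class, the 5 NMDA receptor genes had 2.62 sites per 100 kb (1.77 to 3.74), the 3 AMPA receptor genes 1.87 (1.09 to 2.996) and the 2 kainate receptor genes 0.523 (0.192 to 1.14). The interval of the NMDA genes did not overlap that of the kainate genes, whereas that of the AMPA genes overlapped both. Sites within a gene share its chromatin, and none of these differences was tested.

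**Figure D1:**
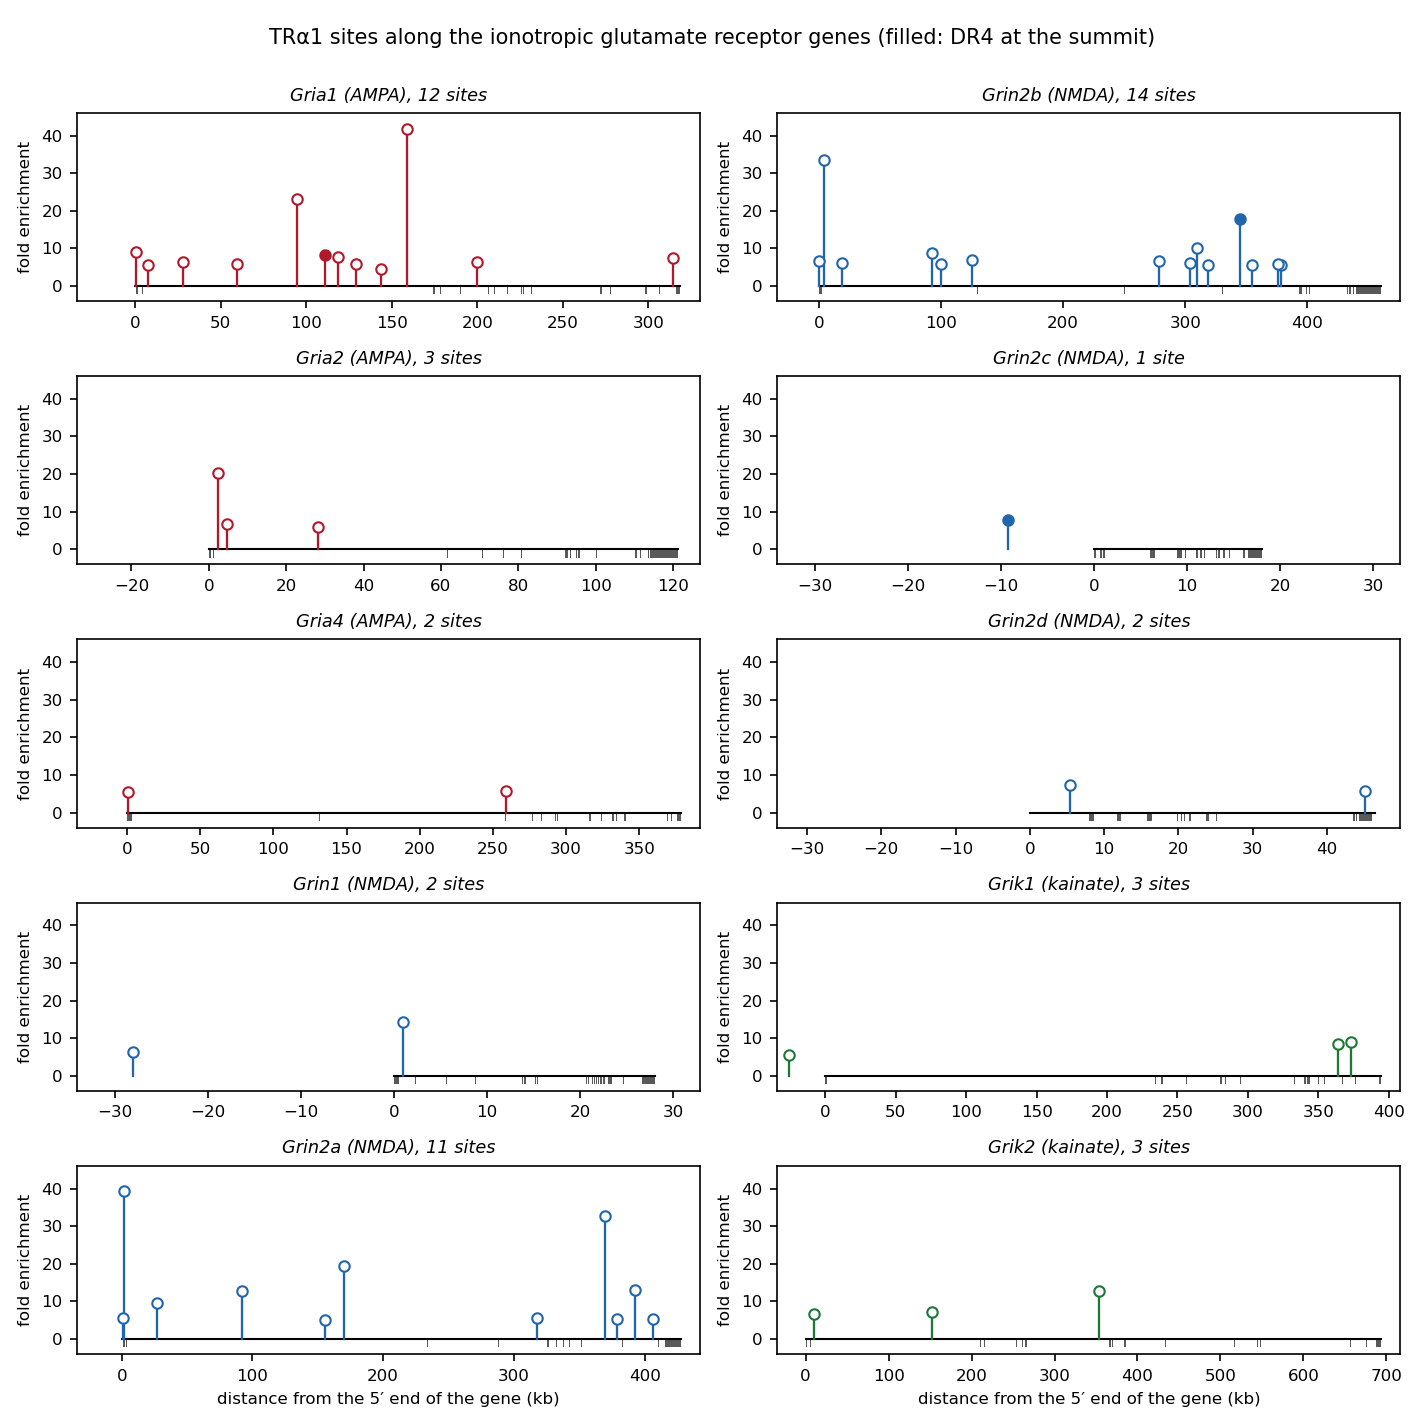
TRα1 sites along the 10 genes, with the distance of the summit from the 5′ end of the gene (kb, transcription from left to right) on the horizontal axis and the fold enrichment on the vertical axis. Each circle is 1 site, filled where a DR4 element lies at the summit, the black line is the gene body and the small marks below it are annotated exons. Gria1, Grin2a and Grin2b carry 12, 11 and 14 sites, mostly within long introns, while the kainate receptor genes carry 3 each.

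The AMPA receptor genes are described first. Gria1 (ENSMUSG00000020524.16, chromosome 11, 57011387 to 57330244, plus strand) encodes GluA1, the subunit whose synaptic insertion accompanies many forms of long-term potentiation. It held 12 sites in 319 kb, and 94.6% of the 665 protein-coding genes within 1.5 times its length held fewer. The median of those genes was 3 sites. Of the 12 sites, 9 lay in intron 2, which spans 170.5 kb and takes up 53.5% of the gene, so that most of the sites preceded exons 3 to 16.

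The strongest site of all 10 genes was in this intron, at 57169776 to 57170780 and 158832 bp from the TSS. Its fold enrichment, the ratio of fragments at the summit to the local background, was 41.8, with a pileup of 112 fragments over a background of 1.70. This placed it above 98.5% of all sites in the striatum. It contained a DR4 element, AGGTCActccCTGTCA, 126 bp from the summit and thus outside the summit window, with both mismatches in the second hexamer.

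A second strong Gria1 site lay 94643 bp from the TSS, with a fold enrichment of 23.1. The site with the DR4 element at its summit lay between them at 110806 bp and had a moderate fold enrichment of 8.18. The remaining sites of the intron were weaker, with 5.71 at 7401 bp, 6.45 at 27664 bp, 5.92 at 59314 bp, 7.81 at 118283 bp, 5.99 at 128884 bp and 4.58 at 143659 bp. The last of these was the lowest value of all 53 sites. Beyond the intron, values of 6.29 and 7.40 were found at 200138 and 314807 bp, the latter in intron 15 close to the 3′ end. At the promoter, a site of 9.09 had its summit 394 bp from the 5′ end and 29 bp from another annotated Gria1 start.

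Gria2 (ENSMUSG00000033981.14, chromosome 3, 80681450 to 80802835, minus strand) encodes GluA2, the subunit that makes edited AMPA receptors nearly impermeable to calcium. Its 3 sites all lay in intron 2 of the principal transcript, within 30 kb of the TSS, and none lay in the distal part of the gene. The fold enrichment was 20.3 at 2309 bp, 6.82 at 4642 bp and 6.06 at 28236 bp, so it was highest closest to the TSS. The strong site, at 80800327 to 80800819 with a pileup of 59, falls in a non-coding exon of another transcript and exceeded 91.4% of all sites. Of 2014 genes of similar length, 67.2% held fewer than 3 sites.

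Gria4 (chromosome 9, 4417896 to 4796234, minus strand), which encodes GluA4, is longer than Gria1 but held only 2 sites. They were 772 and 259223 bp from the TSS with fold enrichments of 5.58 and 5.77, both below the lower quartile of all sites, 5.95. Introns 3 and 4, of 128.8 and 126.9 kb, contained none. Among 554 genes of similar length, 58.3% held more sites and 25.6% held fewer. The promoter site was 57 bp from another annotated start of the gene.

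Among the NMDA receptor genes, Grin1 (chromosome 2, 25291181 to 25319187, minus strand) encodes GluN1, the subunit that every NMDA receptor requires. It is a short gene of 28.0 kb with 2 sites. One lay in intron 1, 1023 bp from the TSS and 931 bp from another annotated start of the gene. It had a fold enrichment of 14.4 and a pileup of 45, above 84.0% of all sites. The other, of 6.41, was 28069 bp upstream of Grin1 and nearer to the TSS of Dpp7, which encodes a dipeptidyl peptidase, at 9103 bp. The strong site was therefore the only one within Grin1 itself.

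Grin2a (chromosome 16, 9567898 to 9995560, minus strand) encodes GluN2A, the subunit that gains weight in NMDA receptors during postnatal maturation. It held 11 sites in 428 kb, more than 89.3% of the 466 genes of similar length. The strongest, at 9993182 to 9994251, lay 1721 bp from the TSS in a non-coding exon, with a fold enrichment of 39.4 and a pileup of 105, above 98.2% of all sites. A weaker site of 5.58 lay 631 bp from the TSS and was thus closer to the 5′ end of the gene. The strong site was, however, 431 bp from another annotated Grin2a start, and the weaker one 6 bp from such a start.

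A second group of Grin2a sites lay in introns 5 to 12, towards the 3′ end of the gene. It included the strong site in intron 11, 369613 bp from the TSS, with a fold enrichment of 32.6 and a pileup of 95. Near it were sites of 5.58 at 317397 bp, 5.43 at 378842 bp, 13.02 at 392997 bp and 5.39 at 406410 bp. Between the groups lay a stretch of 147.2 kb without a site. Intron 3, which spans 230 kb, held the other 4 sites, with 9.67 at 26690 bp, 12.6 at 92329 bp, 5.17 at 155724 bp and 19.3 at 170190 bp. Of the 12 sites of all 10 genes that reached a score of at least 200, Grin2a held 5, the most of any gene.

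Grin2b (chromosome 6, 135713233 to 136173511, minus strand) encodes GluN2B, the GluN2 subunit that predominates early in forebrain development and remains abundant in the adult striatum. It had the most sites of the group, 14 in 460 kb, and 94.3% of 423 genes of similar length held fewer. The first lay 7 bp from the TSS with a fold enrichment of 6.69. The strongest, in intron 2 at 136169347 to 136170042 and 3806 bp from the TSS, reached 33.4 with a pileup of 89. As in Grin2a, the site at the 5′ end was the weaker member of a neighbouring pair.

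The other 4 sites in intron 2 of Grin2b had fold enrichments of 6.20 at 19203 bp, 8.93 at 92908 bp, 5.92 at 100368 bp and 7.07 at 125121 bp. After a stretch of 153.7 kb that contained the whole of intron 3, sites resumed in introns 4 and 5. Intron 4 held values of 6.69, 6.12, 10.01 and 5.67 at 278835, 304194, 309986 and 319024 bp. Intron 5 held the DR4 site of 17.9 at 344936 bp, followed by 5.55 at 354521 bp, 5.99 at 376081 bp and 5.58 at 378760 bp. The DR4 site was thus the second strongest of the gene, and its summit window also held an intact AGGTCA hexamer outside the DR4 element. No site was found beyond 378760 bp, where most of the exons lie.

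Grin2c and Grin2d encode GluN2C, best known from cerebellar granule cells, and GluN2D, found in interneurons and in the developing brain. Grin2c (chromosome 11, 115249169 to 115267243, minus strand) held no site in its body. Its single site, with a fold enrichment of 7.81, was 9280 bp upstream and 527 bp from the TSS of Fdxr, which encodes ferredoxin reductase. Grin2d (chromosome 7, 45831883 to 45878378, minus strand) held sites of 7.21 at 5466 bp and 5.61 at 45109 bp. The first was 140 bp from the TSS of Kdelr1, which encodes a receptor that returns proteins to the endoplasmic reticulum, and the second, in coding exon 13, was 2325 bp from that of Grwd1. All 3 sites were therefore closer to the promoter of another gene, and to which gene they relate cannot be told apart here.

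The kainate receptor genes held 3 sites each. Grik1 (chromosome 16, 87895900 to 88290265, minus strand), which encodes GluK1, held no site between its TSS and a point 363723 bp downstream. Its sites had fold enrichments of 5.58 at 26030 bp upstream, 8.55 at 363723 bp in intron 13 and 8.93 at 372918 bp in intron 14. Intron 1, which makes up 59.2% of the gene, was empty. Of 531 genes of similar length, 48.2% held more sites and 40.9% fewer.

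Grik2 (chromosome 10, 49094833 to 49788766, minus strand), which encodes GluK2, is the longest gene of the group at 694 kb and had the lowest density, 0.414 sites per 100 kb. Its sites had fold enrichments of 6.69 at 9792 bp and 7.21 at 152094 bp in intron 2, and 12.8 at 353852 bp in intron 7. The last, at 49434641 to 49435139, was the strongest kainate receptor site. It lay 1528 bp from the start of a shorter annotated Grik2 transcript and in soft-masked sequence, which marks repeats. Of 213 genes of similar length, 61.0% held more sites.

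**Figure D2:**
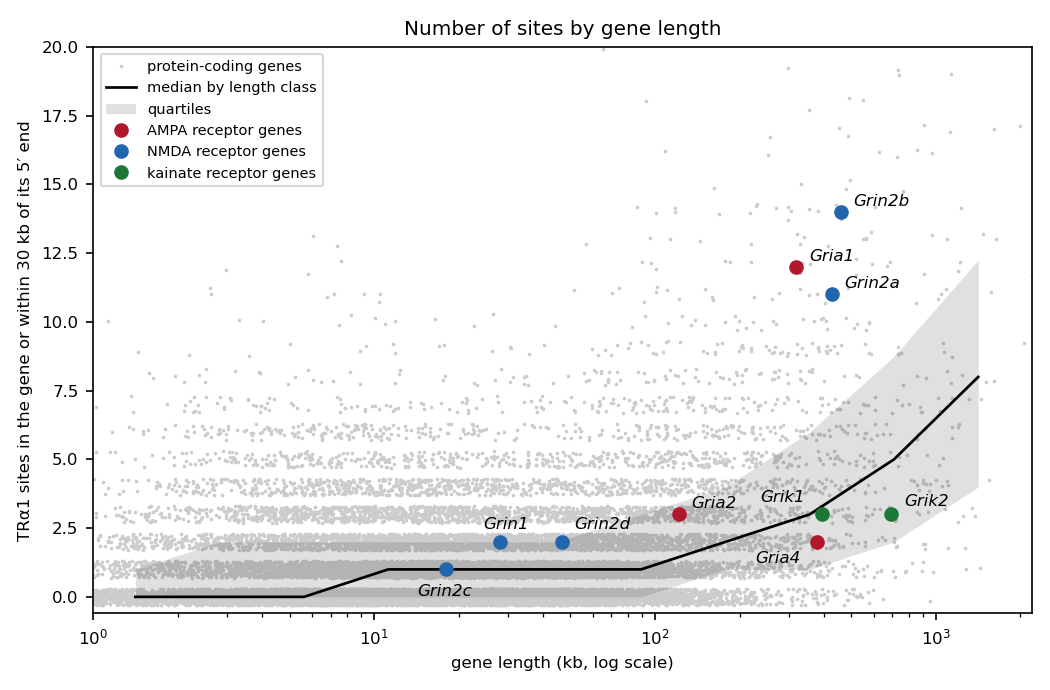
Number of TRα1 sites per gene (vertical axis) against gene length in kb (horizontal axis, log scale). Grey points are protein-coding genes, spread vertically to reduce overlap and shown up to 20 sites, the black line is the median by length class, the band spans the quartiles, and coloured points are the receptor genes. Grin2b, Gria1 and Grin2a, with 14, 12 and 11 sites, lie above the band, whereas Gria4 and Grik2, with 2 and 3 sites, lie below the median.

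Set against genes within 1.5 times their length, 6 of the 10 receptor genes held more sites than the median, 2 held as many and 2 held fewer. Gria1, Gria2, Grin1, Grin2a, Grin2b and Grin2d were above it, Grin2c and Grik1 were at it, and Gria4 and Grik2 were below. The high counts were therefore those of Gria1, Grin2a and Grin2b, and long members of the same family ranged from the lower part of the distribution to its upper end.

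Promoter and distal positions were compared next. Within 1 kb of the TSS lay 4 of the 53 sites, 1 each in Gria1, Gria4, Grin2a and Grin2b. A site at this distance was present in 23.2% of all protein-coding genes and in 32.2% of those of at least 100 kb, against 4 of the 10 receptor genes. With the sites of Grin2c and Grin2d near the TSS of Fdxr and Kdelr1, 6 of the 53 sites, or 11.3%, lay within 1 kb of the TSS of any protein-coding gene, against 20.4% of all sites. The 4 sites within 1 kb of the receptor TSS were weak to moderate, with fold enrichments of 5.58 to 9.09. Between 1 and 4 kb downstream of the TSS lay the strongest sites of Gria2, Grin1, Grin2a and Grin2b. Their fold enrichments were 20.3, 14.4, 39.4 and 33.4. The band was drawn around these sites, and the share of all genes with a site in it was not computed. Over all sites, the median fold enrichment was 7.81 within 1 kb of a coding TSS and 7.21 farther away. The contrast with the receptor sites within 1 kb holds for the 5′ end of the gene only. The Grin1 and Grin2a sites were 931 and 431 bp from another annotated start of their gene. Counting every annotated start, 6 sites lay within 1 kb, with these among them.

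Within 30 kb of the TSS, the distance used by the study to relate sites to genes, each of the 10 genes had at least 1 site. Of all protein-coding genes, 53.3% had one. These 19 sites were downstream of the TSS in 16 cases and upstream in 3, those of Grin1, Grin2c and Grik1. The study reports a higher frequency of binding sites downstream of the TSS in general. The split over all genes was not computed here. A further 34 sites lay beyond 30 kb, 29 of them beyond 100 kb. By the assignment rule such sites can lie only within gene bodies, and their share in other long genes was not computed. The strongest site of Gria1 and the intron 11 site of Grin2a were among these distal sites.

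Of the 50 sites within the genes, 44 were intronic, 5 lay in non-coding parts of exons and 1, in Grin2d, in a coding exon. Introns thus held 88.0%, compared with 77.4% of all sites that lay in protein-coding genes. This comparison is not matched for gene length, with medians of 348.6 kb for the receptor genes and 17.4 kb for all protein-coding genes. The second share also counts exons of any protein-coding gene, the first only those of the receptor gene. In 45 of the 53 cases no protein-coding gene had its TSS closer to the summit than the receptor gene itself. The other 8 were nearer to Fam114a2 (Gria1), Msantd4 (Gria4), Dpp7 (Grin1), Fdxr (Grin2c), Kdelr1 and Grwd1 (Grin2d) or Bach1, which encodes a transcriptional repressor and was nearest to both intronic Grik1 sites. At Fam114a2, Msantd4 and Bach1 the distance was 160449 bp or more. The intronic Grik1 sites at 363723 and 372918 bp were, however, 2711 and 6484 bp from the start of another annotated Grik1 transcript.

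The strength of the receptor sites was close to that of sites in general. Their median fold enrichment was 6.69 (95% interval from order statistics 6.06 to 8.18), with values from 4.58 to 41.8, whereas all sites had a median of 7.40 with quartiles of 5.95 and 11.2. The interval of the receptor sites includes the median of all sites. Above a fold enrichment of 20 there were 6 receptor sites, in Gria1, Gria2, Grin2a and Grin2b, or 11.3% compared with 8.86% of all sites. A score of at least 200 was reached by 12 receptor sites, or 22.6%, compared with 31.4% of all sites. The background value lay at its floor of 1.69 fragments in 39.6% of receptor sites and 42.4% of all sites.

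**Figure D3:**
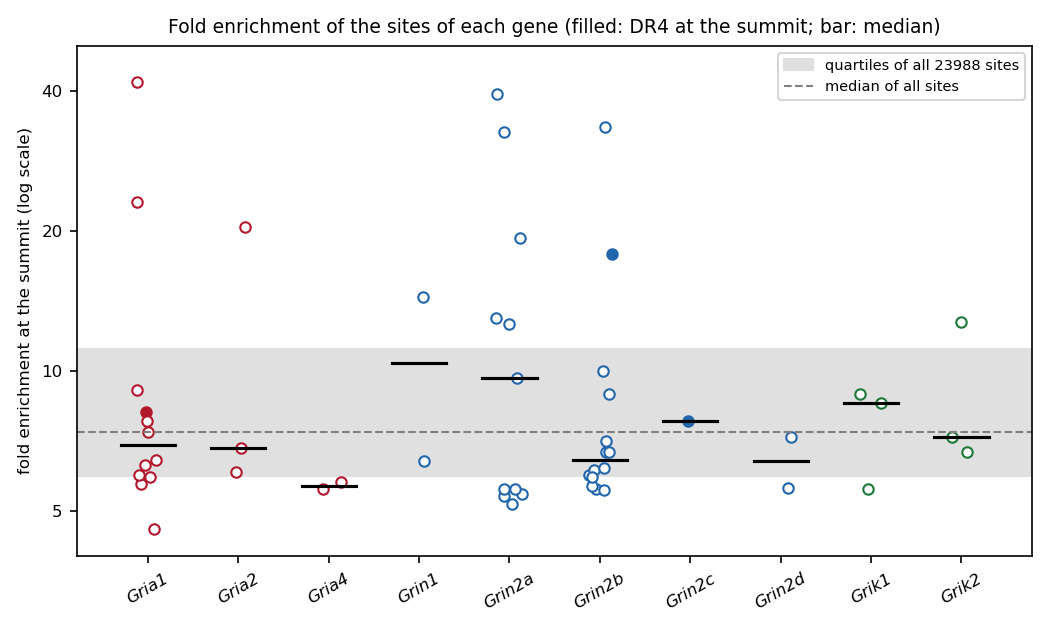
Fold enrichment at the summit (vertical axis, log scale) of each of the 53 sites by gene, with black bars for the median of each gene. Filled circles have a DR4 element at the summit, the dashed line is the median of all 23988 sites and the grey band their quartiles. Most sites lie near or below the dashed line, and the 6 sites above 20 belong to Gria1, Gria2, Grin2a and Grin2b.

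Sequence features at the summits were then compared. In the 201 bp around the summit, the median GC content of the receptor sites was 46.3%, with values from 31.3 to 73.6%, against a median of 50.7% for all sites. The highest values were at the 2 Grin2d sites, with 73.6 and 70.6%, and the lowest was at the upstream Grik1 site. The number of CpG dinucleotides had a median of 2, against 3 for all sites. Soft-masked sequence was found at the summit of 2 receptor sites, or 3.77%, compared with 10.3% of all sites, and these were the intron 7 site of Grik2 and the Grin2b site at 304194 bp.

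DR4 elements were found at the summit of 5.66% of the receptor sites (95% Wilson interval 1.94 to 15.4), compared with 13.1% of all sites, which the interval includes. In equally wide windows shifted 5 kb to the right, they occurred at 0 of 53 receptor sites (95% Wilson upper limit 6.76%) and at 2.30% of all sites. The share at receptor summits was therefore distinguishable at this number of sites neither from that of all sites nor from that of the neighbouring windows. Most receptor sites are intronic, however. Of all intronic sites more than 1 kb from a coding TSS, 15.7% had a DR4 element, just above the upper limit of the interval. This difference was not tested. By gene, 3 of the 10 receptor genes had a site with a DR4 element at the summit, against 24.4% of the 12648 protein-coding genes with a site. These shares are not matched for the number of sites. The receptor genes held a median of 3 sites, and all protein-coding genes a median of 1. Of the 6 receptor sites with a fold enrichment above 20, none had one, whereas 18.5% of all sites above 20 did. With only 6 sites these shares cannot be told apart, and 1 of the 6 held an element farther from its summit.

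**Figure D4:**
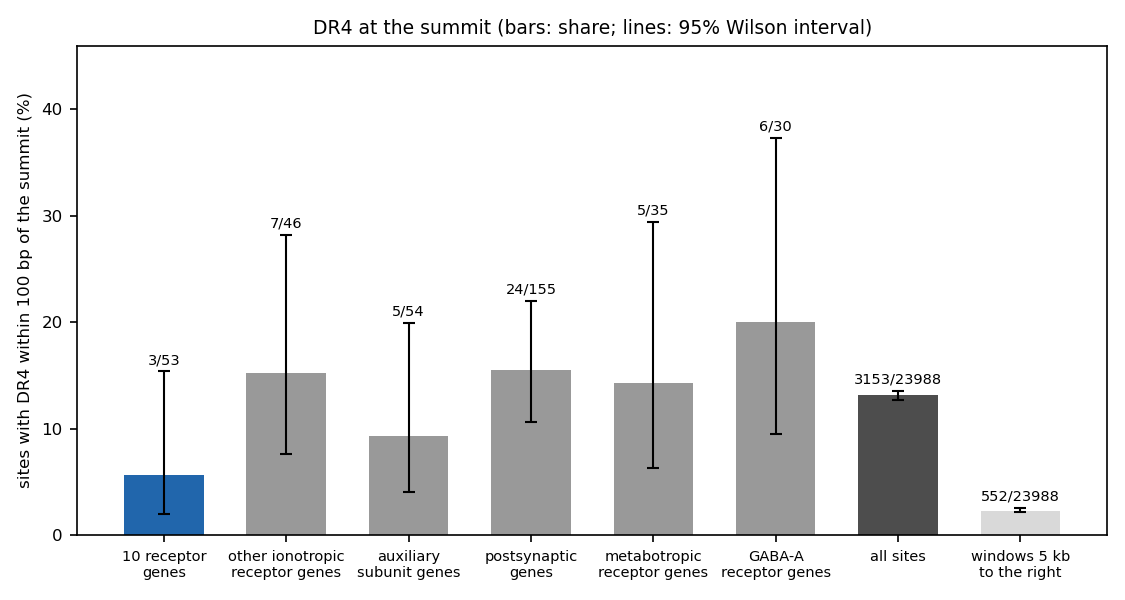
Share of sites with a DR4 element within 100 bp of the summit (vertical axis, percent), for the 10 receptor genes, 5 lists of related genes, all sites and windows 5 kb to the right of all sites. Bars are shares, lines are 95% Wilson intervals over sites, and the numbers above are counts. The interval of the receptor genes, from 1.94 to 15.4%, includes the 13.1% of all sites.

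When the whole length of each site was searched, 6 of the 53 sites held a DR4 element, or 11.3%, compared with 17.3% of all sites. The additional elements were in the strongest Gria1 site, in the Grik2 site of intron 7 (AGGTTAtctaAGGTGA) and in the Grin2a site 92329 bp from the TSS (AGATGAagcaAGGTCA). With at most 3 mismatches, 20 receptor sites, or 37.7%, held an element at the summit, compared with 38.2% of all sites. At this allowance the shares were close.

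The reverse question was how many of the DR4 elements in these genes were occupied. The searched sequence contained 352 elements with at most 2 mismatches, of which 6 touched a site, or 1.70%, against 1.85% of 290078 in the genome. The 26 elements closest to the repeat, with at most 1 mismatch, touched 0 sites. This allows a share of up to 11.5%, an approximate limit of 3 divided by 26. In the genome 4.62% of such elements were touched. Of these 26, 8 were in Grik1 and 4 in Grik2.

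Intact DR4 elements occurred only in the kainate receptor genes, once in each, and are shown because no site covered them. That of Grik1 lies at chr16:87978149-87978164 on the plus strand, 51.6 kb from the nearest summit, and that of Grik2 at chr10:49259619-49259634 on the minus strand, 175.3 kb from the nearest summit.
Grik1: AGGTCAtattAGGTCA
Grik2: AGGTCAgcagAGGTCA
Both lie deep within the genes, 312.1 and 529.1 kb from the TSS. In the genome 14.8% of the 1119 intact elements touched a site.

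Other arrangements of AGGTCA, with the same allowance of mismatches, were found at few receptor summits. Direct repeats with 7 bp between the hexamers (DR7) occurred at 3 receptor sites, or 5.66%, in Gria1 at 118283 bp and in Grin2b at 3806 and 344936 bp, compared with 2.16% of all sites. An everted repeat with 6 bp between the hexamers (ER6) occurred at 2, in Gria1 and Grin2b, or 3.77% compared with 1.33%. The Gria1 site at 118283 bp held both arrangements and an intact AGGTCA. DR3 and DR8 were found at 1 site each, in Grin2b and Grin1, and DR0, DR1, DR2, DR5, DR6 and the inverted repeat IR0 at none. An intact AGGTCA on either strand was present at 4 receptor summits, 1 in Gria1, 1 in Grin2a and 2 in Grin2b, or 7.55%, compared with 17.8% of all sites.

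Short motifs of other factors were searched on both strands without mismatches. The AP-1 motif TGANTCA, bound by FOS and JUN proteins, occurred at 5 receptor sites, 2 in Grin2a and 3 in Grin2b, or 9.43% compared with 11.5% of all sites. The GC box GGGCGG, bound by SP and KLF factors, occurred at 3, in Grin2a and at both Grin2d sites, or 5.66% compared with 18.2%. These shares are not matched for distance from a TSS. The octamer ATGCAAAT, bound by POU factors, was present at 1 site, in intron 14 of Grik1. The motifs TGACGTCA, CACGTG and GCGTGGGCG were at 0 of the receptor summits, against 0.542, 4.68 and 0.379% of all sites.

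The receptor genes were finally set beside 5 lists of genes for related receptors and synaptic proteins. The 8 other ionotropic receptor genes all held sites, 46 in total at 1.26 per 100 kb, with a median fold enrichment of 7.25. Grid1, which encodes the delta receptor GluD1, had the most, with 15, and the strongest, at 75.9. Compared with the members of the main group, this density lay within their Poisson interval of 1.24 to 2.17. That comparison is not matched for length. Among genes of at least 100 kb the density was 0.942, against 1.60 in the main group.

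Of 14 genes for auxiliary subunits, which set the trafficking and gating of AMPA and kainate receptors, 13 held sites, at 2.75 per 100 kb. Cacng2 and Cacng3, which encode TARP subunits, had 8 each, and Gsg1l had the strongest, at 48.3. Of 21 genes for postsynaptic scaffold and signalling proteins, 20 held sites, 155 in total at 2.37 per 100 kb, and Dlg2, which encodes the scaffold PSD-93, had both the most, with 25, and the strongest, at 70.2. The genes of these lists are shorter, with a median length of 81.6 kb for the auxiliary subunits and 96.7 kb for the postsynaptic genes, against 348.6 kb for the receptor genes. Restricted to genes of at least 100 kb, the densities were 1.60 for the receptor genes, 2.03 for the auxiliary subunits, 1.61 for the postsynaptic genes and 0.942 for the other ionotropic receptors.

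The metabotropic glutamate receptor genes, which encode receptors coupled to G proteins, held sites in 7 of 8 cases, at 1.04 per 100 kb, with the strongest in Grm8 (32.0). Of 19 GABA-A receptor genes, which encode inhibitory channels, 10 held sites, at 0.8801 per 100 kb. Here each of the 30 sites was counted once, but searched sequence common to several genes was counted for each gene. This density is therefore too low. Gabrg3 had the most, with 12, and the strongest, at 31.5, was shared by Gabra4 and Gabrb1. In genes of at least 100 kb the densities of these lists were 0.962 and 1.18. The latter counts a site once for each gene that holds it, so it is not on the same scale as 0.8801. DR4 elements were at the summit of 15.2% of the sites of the other ionotropic receptor genes, 9.26% of those of auxiliary subunits, 15.5% of those of postsynaptic genes, 14.3% of those of metabotropic receptors and 20.0% of those of GABA-A receptors. The Wilson intervals of all 5 lists overlapped that of the 10 receptor genes.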

How the data were processed

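TRα1 ChIP-seq was available as 1 peak list from 2 ChIP libraries and 1 input library of adult striatum, grouped by their titles. The authors aligned the reads to GRCm38 with Bowtie, called peaks with MACS and removed peaks with a score below 60, and the submitters' processing notes list Bowtie2 2.3.2.2 and MACS2 2.1.1.20160309.0. Pooling of the libraries and the treatment of duplicates were not given in the sources used here. The deposited pileup is the signal, or fragment coverage, at the summit. The deposited fold enrichment is a ratio, that of the pileup plus 1 to the background of MACS plus 1, from which the background was recomputed. The deposited p-values were not used, and the deposited score, 10 times the −log10 q value without its decimals, served as a filter.

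Genes, exons and transcript starts were taken from GENCODE vM21. Searched regions were the gene body and 30 kb on either side of the 5′ end. Genes of similar length were those within a factor of 1.5. A DR4 element had at most 2 mismatches in its hexamers. Only descriptions are given, since no test between replicates could be made. All 10 receptor genes are named, as are the gene with the most sites and that with the strongest site in each comparison list, and other genes whose TSS was nearest to a receptor site, except 1 gene that is not reported here. The strongest NMDA receptor site is not printed as sequence, because it lies in a non-coding exon, and the strongest intronic one is shown instead. The genes, lists and motifs were chosen with earlier results of these data known. Scripts were run in Python 3.11.15 with scipy 1.17.1, pandas 2.3.3, matplotlib 3.10.9 and numpy 2.4.6, and the motif search was tested on simulated data, where 200 of 200 planted elements were found.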

Additional observations from a re-analysis of the deposited data

How the results depend on the processing

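Of 56 alternatives, 47 planned and 9 chosen after seeing the data, 40 stayed within the set margin, which was a factor of 1.5 for counts and the 95% interval of the reported value for the density, the DR4 share and the median fold enrichment. This margin is wide, as the DR4 share in whole sites, 11.3% against 5.66% at summits, falls within it, as do 2 genes with a DR4 element in gene bodies alone against 3, and 6 sites within 1 kb of any start of the gene against 4. With a score of at least 200, 6 genes and 12 sites remained, 0 of them within 1 kb of the TSS and 10 in introns, the median fold enrichment was 19.84, the density 0.3748 per 100 kb, and 1 gene had a DR4 element at a summit. With the 30 kb around the TSS alone, there were 19 sites, 11 of them in introns, at 3.167 per 100 kb, and 1 gene had a DR4 element at a summit. With at most 1 mismatch, 0% of sites and 0 genes had a DR4 element, with at most 3 mismatches 37.74% of sites and 8 genes, and in whole sites 5 genes. The cause of these changes was not tested. Overlap of the peak, gene bodies alone, the nearest TSS, any transcript start and leaving out Gria1, Grin2a or Grin2b moved no result run under them beyond the margin. Leaving out a replicate was not possible, because the list holds no values for single libraries. No paired analysis was possible because the list holds no values for single libraries. With 53 sites, the 95% Wilson upper limit for a share of 0 is 6.76%.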
